A study of Mus musculus with 12 samples.

Results

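Mouse ear fibroblasts were grown on 20-kPa slow-relaxing viscoelastic gels and on 2-kPa elastic gels, and their RNA was compared to ask whether a stiff gel that relaxes resembles a soft gel that does not. The 6 samples compared were the 3 replicates of each of these groups, out of 12 in the series, and a sample was a member by the gel named in its label. The other 6 samples, 3 on 20-kPa elastic and 3 on 2-kPa viscoelastic gels, entered the same fit and served for side-by-side values. In all 4 groups the cells were passage-2 fibroblasts from the ears of C57BL/6 mice of both sexes aged 1 month, carrying no transgene or drug treatment in the labels, and were kept for 48 h on alginate coupled to the adhesion peptide RGD. Poly-A RNA was sequenced, and the authors deposited raw counts of reads per gene.

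The elastic gels were crosslinked covalently and the viscoelastic gels with calcium. The comparison therefore changes stiffness and gel type together, and the other 2 groups give values for stiffness within a gel type. Stress relaxation, the type of crosslink and calcium change together with gel type in all groups and cannot be told apart. Within a gel type, stiffness was set by the amount of crosslinker, which on viscoelastic gels is calcium. Values for stiffness on viscoelastic gels therefore include the dose of calcium, and the 2 cannot be told apart. Replicates were called biological, and nothing in the labels ties a replicate to a mouse, so p-values measure the spread between these samples.

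Fibroblasts hold on to the matrix through integrins, which join through talin and vinculin to contractile actin fibres and from there, through the LINC complex, to the nuclear lamina. On a stiff elastic substrate these fibres pull against a constant resistance, and nuclear YAP, contractile genes and cell division commonly go up. In a relaxing gel the bonds of the matrix rearrange under the same pull, so the resistance decays with time. Fibroblasts also build the matrix itself, as collagens, basement membrane proteins, elastic fibre proteins and proteoglycans, and remodel it with proteases.

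Between 36626221 and 42410260 reads were counted on genes in each of the 6 samples, and the normalization factors (TMM) lay between 0.968 and 1.02. Of 33246 genes listed, 14542 passed the expression filter of edgeR and were tested. The mean chi-square between replicates of a group was 11.2 to 39.8 per gene, where counting error alone gives about 1, so no pair was 1 library deposited again. The 12 fibroblast markers summed to between 26020 and 27150 CPM (read counts scaled to a library of common size by TMM) on 2-kPa elastic gels and to between 27780 and 29950 CPM on 20-kPa viscoelastic gels. Of these 12, 5 were called, against 31.4% of all tested genes. On the log2 scale Dcn rose by 0.61, S100a4 by 0.33 and Vim by 0.22, while Fap fell by 0.95 and Pdgfrb by 0.22. Markers of chondrocytes, the cells of ear cartilage, were high in both groups, with sums of 4834 to 6215 and 4898 to 6189 CPM. Col2a1, the cartilage collagen, stood at 2423, 3169 and 3261 CPM on 2-kPa elastic gels and at 3471, 2552 and 3047 CPM on 20-kPa viscoelastic gels. Acan, the cartilage proteoglycan, fell by 0.51 on the log2 scale (edgeR adjusted p = 0.0029), and Comp, a cartilage matrix protein, rose by 0.43 (edgeR adjusted p = 0.018), and the part of these cells in other results was not tested. The sum of 6 pericyte and smooth muscle markers went from 473 to 554 CPM down to 281 to 337 CPM, nearly all of it Cspg4, a surface proteoglycan. Cspg4 measured 509, 540.4 and 461 CPM on 2-kPa elastic gels and 328, 272 and 301 CPM on 20-kPa viscoelastic gels (log2 fold change −0.75 ± 0.10 SE, edgeR adjusted p = 0.00013). Notch3, a receptor of mural cells, fell as well, from a mean of 9.83 to 6.47 CPM (edgeR adjusted p = 0.00067). The other 4 markers, among them Myh11 of smooth muscle with means of 1.15 and 1.34 CPM, were low in both groups and not called. The part of such cells in other results was not tested. Keratinocyte markers summed to 14.2 to 18.02 CPM and 21.97 to 23.2 CPM, leukocyte markers to 6.67 to 9.06 CPM and 5.17 to 6.48 CPM, endothelial markers to at most 1.91 CPM and skeletal muscle markers to at most 0.426 CPM. Melanocyte markers summed to at most 1.62 CPM, Schwann cell markers to 93.4 to 114 CPM and adipocyte markers to 28.6 to 36.0 CPM over both groups. In bulk RNA, fewer cells of a type and less RNA per cell cannot be told apart.

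Many genes differed between 20-kPa viscoelastic and 2-kPa elastic gels, and many others were shown to lie close together. Each gene was tested for a difference (a call, at an adjusted p under 0.05) and, apart from that, for lying within a 1.3-fold margin of equality in either direction, by 2 one-sided tests. All p-values named edgeR adjusted p, for a difference or for the margin, come from edgeR's quasi-likelihood fit with Benjamini-Hochberg adjustment over all tested genes. Of the 14542 genes, 4569 (31.4%) were called, of which 2313 (15.9%) rose and 2256 (15.5%) fell on 20-kPa viscoelastic gels. Scaled by total counts alone, 2875 rose and 1684 fell. Within the margin lay 6352 genes (43.7%), 798 of which were also called, having small changes with a small error. The number depended on the margin, with 1825 genes within 1.2-fold and 10402 within 1.5-fold. The remaining 4419 genes (30.4%) passed neither test, and for these neither a difference nor likeness was shown. Of the called genes, 869 differed by at least 1.5-fold and 269 by at least 2-fold, 144 of these upward and 125 downward. The 3 values of the groups did not overlap for 7141 genes (49.1%).

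By comparison, 14.0% of genes were called between 20-kPa and 2-kPa elastic gels, 33.5% between 20-kPa viscoelastic and 20-kPa elastic gels, 19.9% between 2-kPa viscoelastic and 2-kPa elastic gels, and 2.28% between 20-kPa and 2-kPa viscoelastic gels. The root mean square difference in log2 CPM between a 20-kPa viscoelastic and a 2-kPa elastic sample was 0.417 on average over 9 pairs, against 0.290 and 0.283 within the groups. The excess of 0.131 had p = 0.1 in a two-sided exact permutation test, which is the smallest p that 3 samples against 3 allow. Seen from 2-kPa elastic gels, 20-kPa elastic samples lay at 0.383 and 2-kPa viscoelastic samples at 0.411. A 20-kPa viscoelastic sample was on average 0.419 from a 20-kPa elastic sample and 0.330 from a 2-kPa viscoelastic sample. The 9 distances from 2-kPa elastic samples ran from 0.381 to 0.474 and those from 20-kPa elastic samples from 0.356 to 0.512, so these ranges overlapped.

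**Figure D1:**
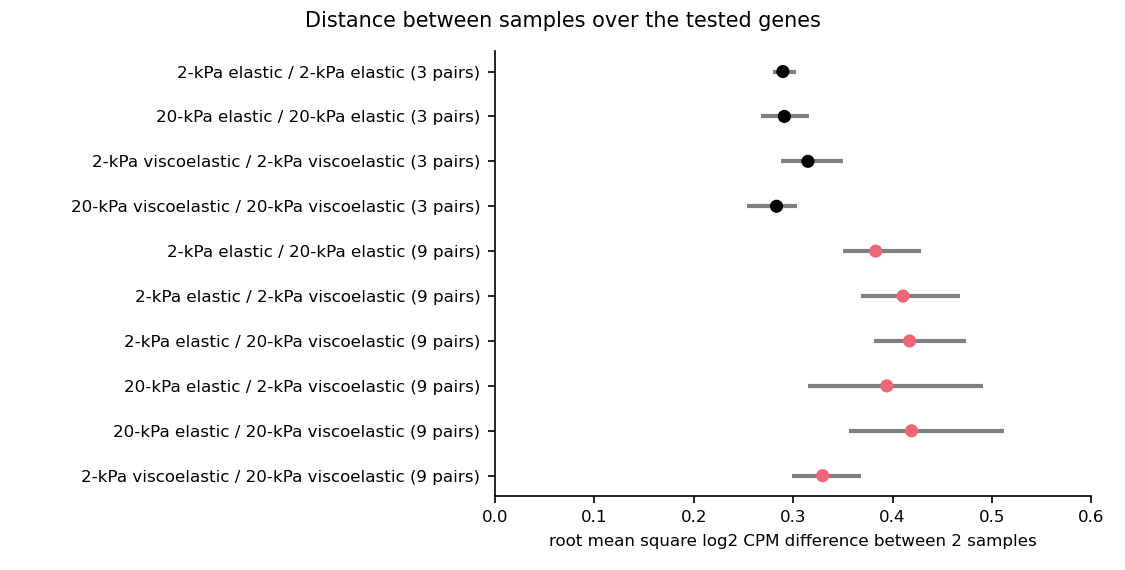
Root mean square log2 CPM difference between 2 samples over the 14542 tested genes, for each pair of groups (dots, mean; bars, lowest to highest pair; black, pairs within a group; red, pairs between groups). The 20-kPa viscoelastic samples lay nearest the 2-kPa viscoelastic samples, with a mean of 0.330, and at 0.417 and 0.419 from both elastic groups.

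The fold change followed gene length, which bears on several groups below. Among the 4778 genes with the shortest exon length, up to 3176 bases, the median log2 fold change was 0.14, with 26.7% up- and 4.10% down-regulated. Among the 4776 genes of 5775 bases or more it was −0.11, with 7.37% up- and 29.9% down-regulated. The same medians were 0.01 and −0.02 between 20-kPa and 2-kPa elastic gels. Where a list had 6 or fewer genes called in a direction, leaving out 1 library often changed that count by a few genes, and larger counts that moved by over 1.5 times are given with the library. Counts with each sample corrected for gene length are given below as length-corrected where they differ by over 1.5 times. Some counts of 6 or fewer called genes are left out of this. The cause of the length trend was not tested. All list counts below stand beside the shares of all tested genes, of which 15.9% rose, 15.5% fell and 43.7% lay within the margin. The share within the margin also depends on how precisely the genes were measured. Of all tested genes 30.4% passed neither test, against 1 of 29 nuclear pore and 2 of 21 lamina and LINC genes. It was 1 of 37 for heat shock chaperones and 1 of 21 for glycolysis genes.

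**Figure D2:**
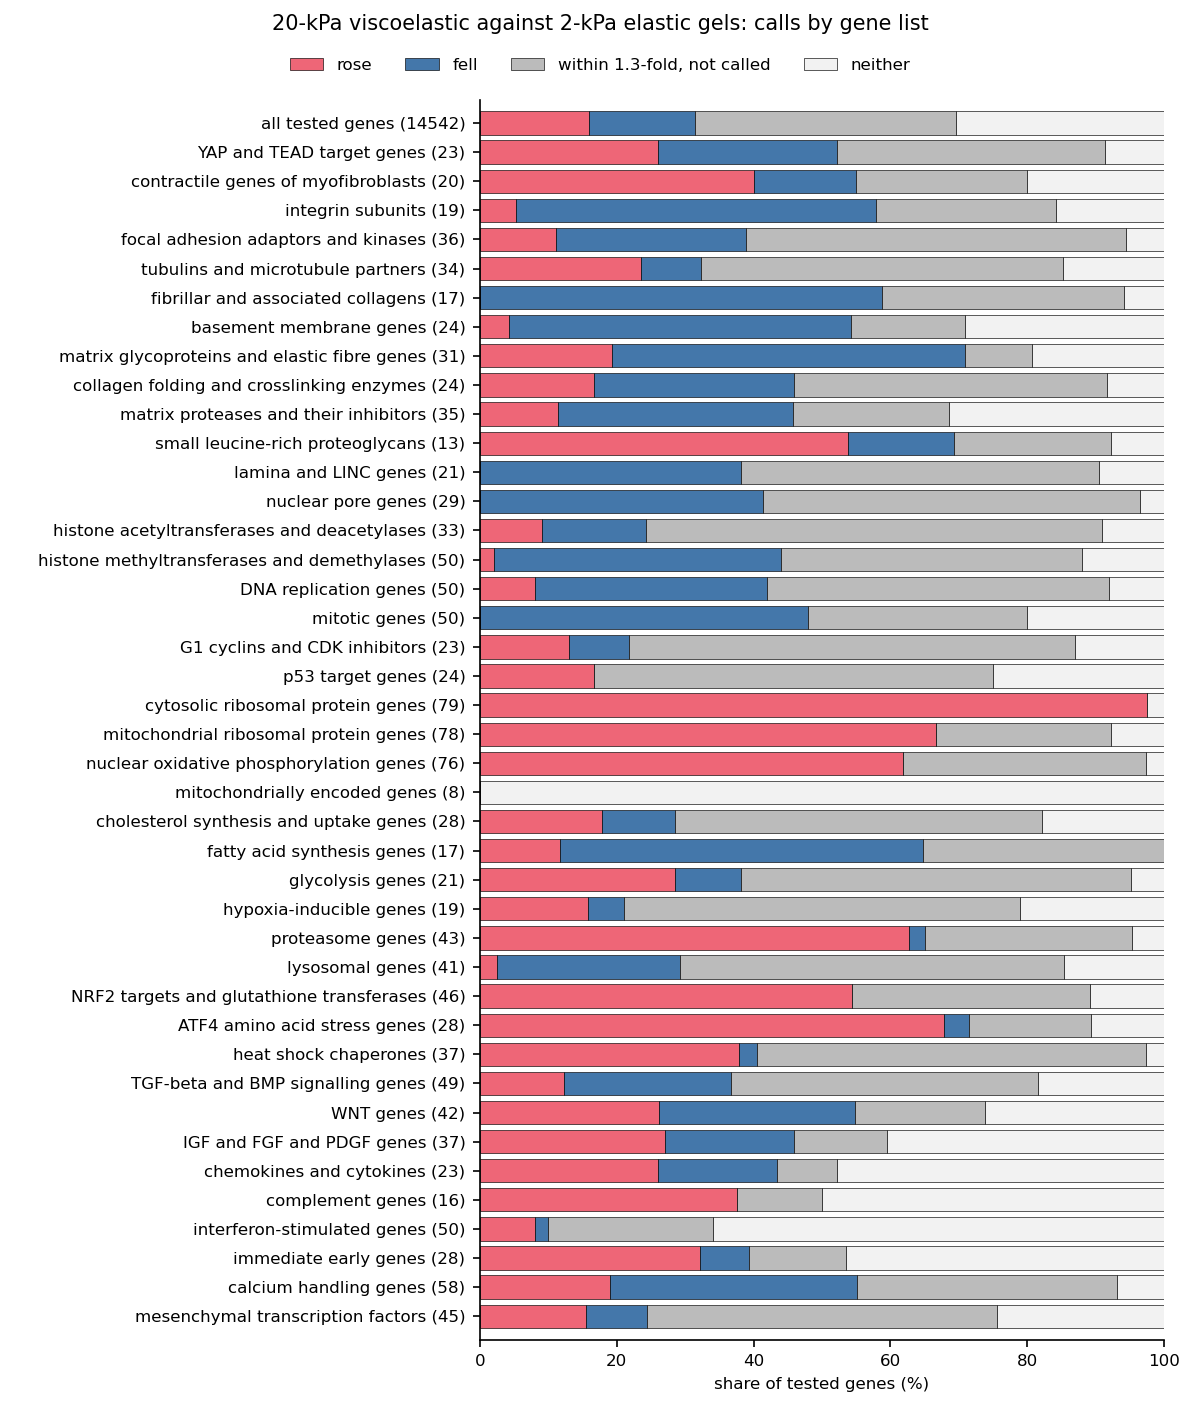
Share of the tested genes of each list, in percent on the x axis, that rose, fell, lay within the 1.3-fold margin without being called, or passed neither test, for 20-kPa viscoelastic against 2-kPa elastic gels (tested genes in parentheses). Against 15.9% of all tested genes that rose, 77 of 79 cytosolic ribosomal protein genes rose, and against 15.5% that fell, 24 of 50 mitotic genes fell.

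Many cell division genes were lower on the stiff viscoelastic gel than on either elastic gel. Of 50 mitotic genes, 24 fell on 20-kPa viscoelastic gels relative to 2-kPa elastic gels, none rose and 17 lay within the margin, with a median log2 fold change of −0.24. Between 20-kPa and 2-kPa elastic gels 37 of the same 50 rose, with a median of 0.34, and 20-kPa viscoelastic gels lay below 20-kPa elastic gels in 47. Of 50 DNA replication genes, 17 fell, 4 rose and 27 lay within the margin (median −0.11), whereas 27 rose and none fell between the elastic gels (median 0.28). Relative to the soft elastic gel, the stiff elastic gel thus held these lists higher and the stiff relaxing gel did not. The soft relaxing gel was low too. On 2-kPa viscoelastic gels the medians relative to 2-kPa elastic gels were −0.27 for mitotic and −0.22 for replication genes. Of these lists 26 and 24 genes were called in that comparison, and none between the 2 viscoelastic gels. The paper's EdU labelling at 48 h found more proliferation on 2-kPa viscoelastic than on 2-kPa elastic gels. At 20 kPa it found no significant difference between gel types, and on elastic gels proliferation went up with stiffness. The RNA levels of these lists therefore do not by themselves show how fast the cells divided, and the difference from that assay was not tested. Relative to the average of the 12 samples, the mean log2 level of the mitotic list was 0.06, 0.06 and 0.03 on 2-kPa elastic gels and −0.08, −0.41 and −0.09 on 20-kPa viscoelastic gels. The second viscoelastic replicate was the lowest, and without it 13 mitotic genes fell and 34 lay within the margin. Without the first or the second 2-kPa elastic replicate 14 fell, and without the first viscoelastic replicate 11 lay within the margin. For the replication list 6 genes fell without the first 2-kPa elastic replicate, 7 without the second, 7 without the second viscoelastic replicate and 11 without the third, and 9 fell when length-corrected.

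Cdc25b, a phosphatase that drives entry into mitosis, measured 33.1, 31 and 32.6 CPM on 2-kPa elastic gels and 23.8, 19.4 and 23.4 CPM on 20-kPa viscoelastic gels (log2 fold change −0.54 ± 0.08 SE, edgeR adjusted p = 0.00022). Here and below, values are those of replicates 1 to 3 on 2-kPa elastic gels and then on 20-kPa viscoelastic gels, and amounts by which a gene rose or fell are on the log2 scale. Cdc25b was not shown to differ between the elastic gels (log2 0.12, edgeR adjusted p = 0.35). Top2a, the topoisomerase that untangles chromosomes, measured 414, 405 and 391 CPM and 323, 241 and 324 CPM in the same order (log2 fold change −0.44 ± 0.10 SE, edgeR adjusted p = 0.0031). In both genes all 3 viscoelastic values were below all 3 elastic values, which the choice of these genes required. Rrm2, a subunit of the reductase that makes deoxyribonucleotides, matched instead, at 93.2, 92.8 and 90.4 CPM and 100.3, 84.5 and 102 CPM (edgeR adjusted p for the margin = 0.004), while 20-kPa elastic gels had a mean of 133 CPM. Rrm2 and the other genes named as matching were picked because they lay within the margin and were called between the elastic gels. Their values and p-values therefore describe that choice. Exceptions are Lmna, Lmnb1 and Parp1, which were picked because the paper names them. Smc4, a condensin subunit, was within the margin too (log2 0.14, edgeR adjusted p for the margin = 0.013), though not without the third 2-kPa elastic or the first viscoelastic replicate. Pold1, the catalytic subunit of a replicative polymerase, fell by 0.41 (edgeR adjusted p = 0.002), a call lost with the block, length and GC terms together (adjusted p = 0.10).

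Promoters of mitotic genes are known to hold the cell cycle homology region and those of replication genes E2F sites, and the motifs were searched because many genes of these lists fell. The first of these (CHR, TTTGAA on either strand) was found between 250 bases before and 50 bases after the annotated start in 34 of 44 windows of mitotic genes (77.3%) and in 12.3% of the 13912 windows of all tested genes that matched. An E2F site (TTTGGCGC or TTTCGCGC on either strand) was found in 11 of 51 windows of DNA replication genes (21.6%) and in 1.4% of all windows. Windows came from RefSeq on build GRCm38.p6 and matched 42 of the mitotic and 41 of the replication genes. A match describes the letters and is no proof of a binding site. The stretches below belong to the down-regulated genes with the lowest adjusted p whose groups did not overlap and whose window held a match, written 5′ to 3′ on the gene's strand with the matched letters in capitals. Top2a at chr11:99024190-99024237 and Ncapd2, a condensin subunit, at chr6:125191679-125191734 are on the minus strand, and Uhrf1, which carries DNA methylation through replication, at chr17:56304103-56304160 is on the plus strand.
Top2a, CHR: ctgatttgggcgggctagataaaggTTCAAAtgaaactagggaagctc
Ncapd2, CHR: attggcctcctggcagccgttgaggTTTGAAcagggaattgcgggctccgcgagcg
Uhrf1, E2F site: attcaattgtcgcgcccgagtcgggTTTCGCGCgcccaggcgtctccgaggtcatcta
Ncapd2 measured 127, 121 and 115 CPM and then 95.1, 74.5 and 91.8 CPM (log2 fold change −0.47 ± 0.08 SE, edgeR adjusted p = 0.00064), and Uhrf1 58.9, 59.8 and 53.02 CPM and then 48.6, 39.7 and 46.3 CPM (log2 fold change −0.35 ± 0.08 SE, edgeR adjusted p = 0.0037). That the values of the groups did not overlap was a condition of the choice of these genes.

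The regulators of G1 mostly matched, with 16 of 23 within the margin, 3 that rose and 2 that fell. Cdkn1c, the CDK inhibitor p57, rose from 21.2, 18.9 and 22.7 CPM to 40.6, 57.95 and 42.4 CPM (log2 fold change 1.17 ± 0.17 SE, edgeR adjusted p = 0.00022). On 20-kPa and 2-kPa viscoelastic gels its means were 46.97 and 23.8 CPM, and on 20-kPa elastic gels 16.8 CPM, so the 20-kPa viscoelastic group stood above the others. Ccnd1, cyclin D1, stood at 172, 165 and 156 CPM and 187, 165 and 183 CPM, within the margin (edgeR adjusted p for the margin = 0.041), but not shown to be within it when any 1 of the 6 libraries was left out (edgeR adjusted p for the margin up to 0.119). Of 24 p53 target genes, 15 lay within the margin, 4 rose and none fell, against 15.9% and 15.5% of all genes.

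**Figure D3:**
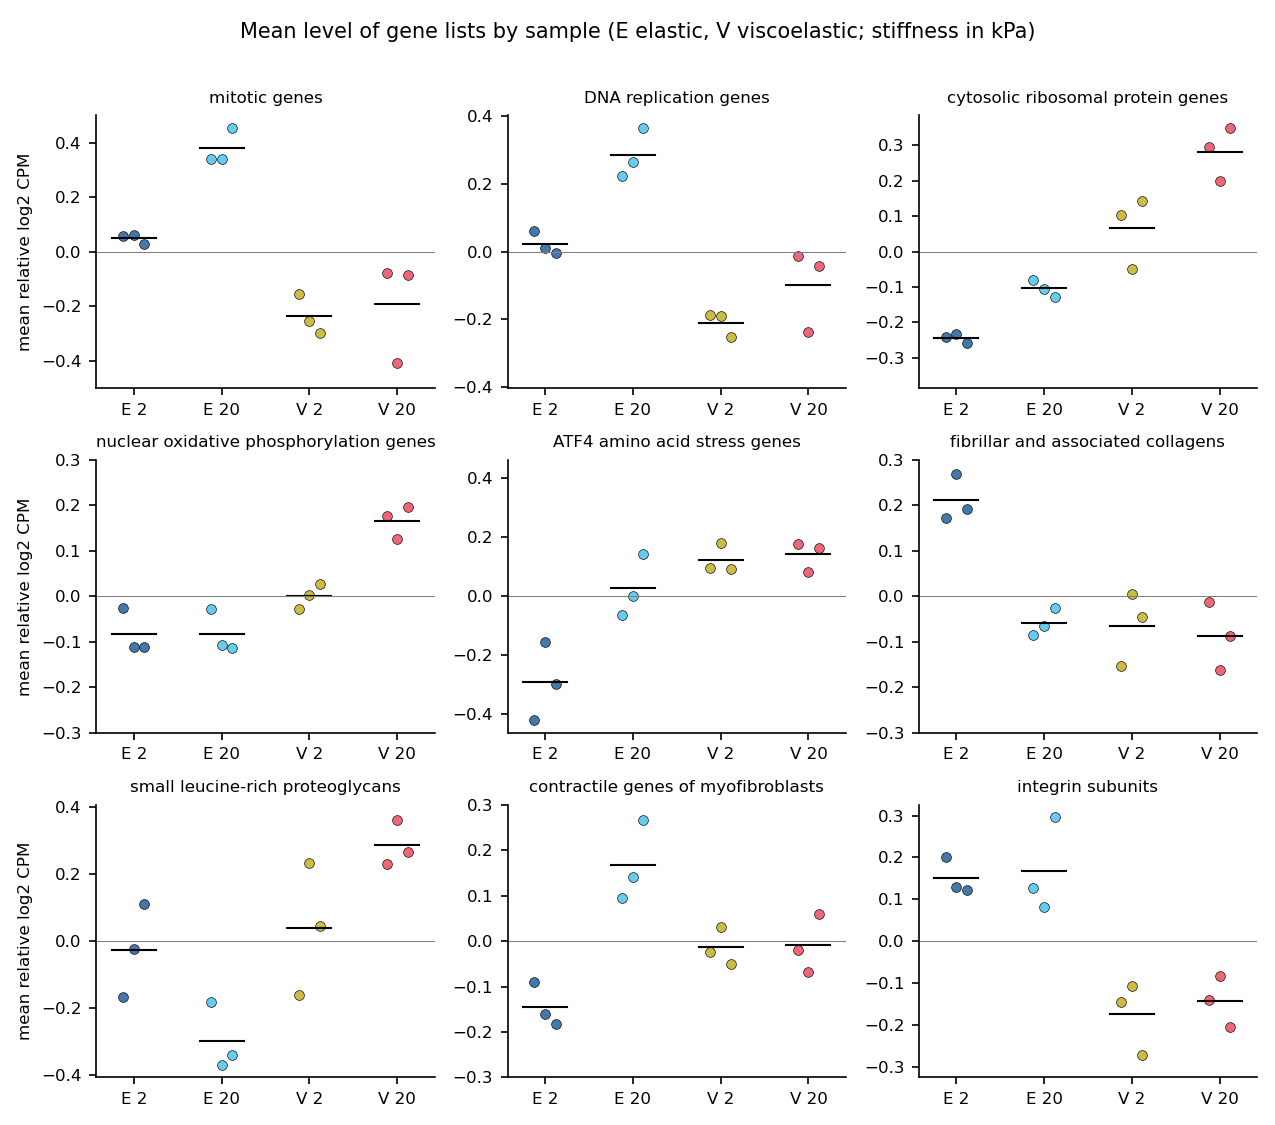
Mean log2 CPM of the tested members of 9 lists relative to each gene's mean over the 12 samples (y axis), by sample (dots) and group (bars, mean; E elastic, V viscoelastic, number in kPa; n = 3). Mitotic genes were highest on 20-kPa elastic gels, and cytosolic ribosomal protein genes were above 0 in the 3 samples on 20-kPa viscoelastic gels and below 0 in the 3 samples on 2-kPa elastic gels.

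Most genes of the ribosome and many of oxidative phosphorylation rose on the stiff viscoelastic gel. Of 79 cytosolic ribosomal protein genes, 77 rose on 20-kPa viscoelastic gels, with a median log2 fold change of 0.54 and a range from 0.10 to 0.93, against 15.9% of all genes. Length-corrected, 73 rose with a median of 0.40, and 7 lay within the margin against 1 before. Between the elastic gels 3 rose (median 0.14), and between 20-kPa viscoelastic and 20-kPa elastic gels 73 rose (median 0.39). On 2-kPa viscoelastic gels 69 of the 79 were called relative to 2-kPa elastic gels (median 0.32). Between the viscoelastic gels 15 were called. Rpl21, a protein of the large ribosomal subunit, measured 149, 148 and 154 CPM on 2-kPa elastic gels and 254, 236 and 270.1 CPM on 20-kPa viscoelastic gels (log2 fold change 0.75 ± 0.06 SE, edgeR adjusted p = 6.3e-06). The groups were far apart compared with their spread. Ribosomal protein genes have many processed pseudogenes, and how reads mapping to several places were counted is not given in the sources used here, so single members are uncertain.

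Messages of ribosomal proteins typically begin with a terminal oligopyrimidine (TOP) tract, which links their translation to mTOR. A C followed by 4 pyrimidines exactly at the annotated start was found in 14 of 68 windows of these genes (20.6%) and in 2.4% of all windows. The 30 bases around the start are shown for Rps6, chosen like Rpl28 after its values were seen, at chr4:86857353-86857382 on the minus strand, and Rpl28, at chr7:4792950-4792979 on the plus strand, with the tract in capitals.
Rps6: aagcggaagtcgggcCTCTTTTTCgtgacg
Rpl28: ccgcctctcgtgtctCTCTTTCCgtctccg
Rps6, of the small ribosomal subunit, measured 114, 118 and 108 CPM and then 186, 172 and 204 CPM (log2 fold change 0.72 ± 0.08 SE, edgeR adjusted p = 2.8e-05), and Rpl28 184, 186 and 173 CPM and then 286, 267 and 306 CPM (log2 fold change 0.66 ± 0.07 SE, edgeR adjusted p = 3.2e-05). In each gene the 3 viscoelastic values were above the 3 elastic values, which the choice of these genes required.

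Of 78 mitochondrial ribosomal protein genes, 52 rose and none fell (median 0.24), with 33 rising when length-corrected and 27 with the block, length and GC terms together. Within the margin lay 31 of them, and 50 when length-corrected. Mrpl32, of the large mitochondrial subunit, measured 19.04, 19.1 and 20.4 CPM and then 28.6, 25.8 and 29.6 CPM (log2 fold change 0.52 ± 0.07 SE, edgeR adjusted p = 0.00012). Of 76 nuclear genes of oxidative phosphorylation, 47 rose, none fell and 33 lay within the margin (median 0.27), with 28 rising when length-corrected and 21 (median 0.11) with the block, length and GC terms together. Length-corrected, 53 of the 76 lay within the margin. No gene of that list was called between the elastic gels, and 52 were higher on 20-kPa viscoelastic than on 20-kPa elastic gels. Atp5e, a small subunit of ATP synthase, measured 35.6, 33.2 and 35.8 CPM and then 52.1, 50.3 and 53.5 CPM (log2 fold change 0.58 ± 0.06 SE, edgeR adjusted p = 3.1e-05). The 8 tested genes encoded by mitochondrial DNA had a median of 0.23, and none was called or within the margin, so for them neither a difference nor likeness was shown. Length-corrected, 2 of these lay within the margin. Proteasome genes rose in 27 of 43, fell in 1, Psme4 (log2 −0.31), an activator, whose call was lost without the second viscoelastic replicate, and 15 rose when length-corrected and 10 (median 0.09) with the block, length and GC terms together. Psma4, a subunit of the core particle, rose by 0.44 (edgeR adjusted p = 8.4e-05).

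**Figure D4:**
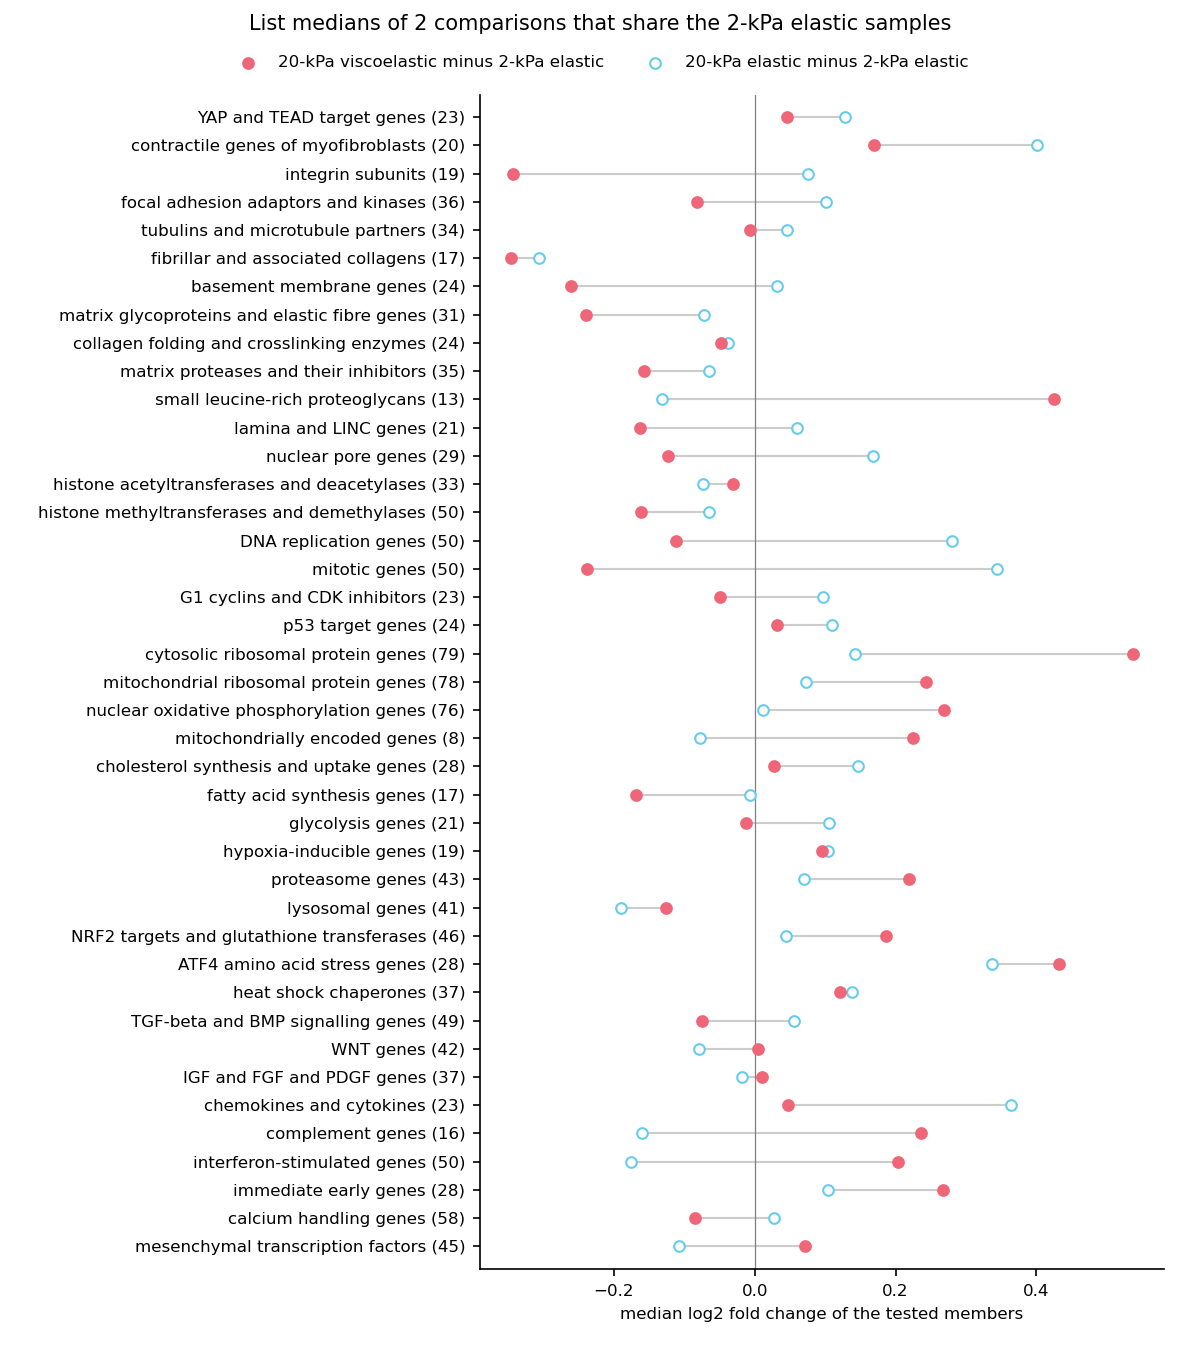
Median log2 fold change of the tested members of each list (x axis) on 20-kPa viscoelastic gels (filled) and on 20-kPa elastic gels (open), both relative to 2-kPa elastic gels, which the comparisons share. Mitotic genes lie at −0.24 and 0.34, collagens at −0.35 and −0.31, and cytosolic ribosomal protein genes at 0.54 and 0.14.

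Among stress genes, those of the ATF4 list were called most often. ATF4 switches on amino acid synthesis and import when the integrated stress response is active. Of 28 genes of this list, 19 rose on 20-kPa viscoelastic gels, 1 fell and 5 lay within the margin, with a median of 0.43. Between the elastic gels 16 rose with a median of 0.34, and between 20-kPa viscoelastic and 20-kPa elastic gels 7 rose and 4 fell. Atf5, a transcription factor of this response, measured 106, 121 and 106 CPM and then 214, 209 and 210.2 CPM (log2 fold change 0.93 ± 0.07 SE, edgeR adjusted p = 3.3e-06). Stc2, a secreted stress hormone, measured 3.31, 4.16 and 4.75 CPM and then 12.2, 18.7 and 14.6 CPM (log2 fold change 1.90 ± 0.18 SE, edgeR adjusted p = 1.3e-05). The single gene that fell was Slc38a2, an amino acid transporter (log2 −0.27, edgeR adjusted p = 0.0091, and 0.052 without the second 2-kPa elastic replicate).

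The amino acid response element that ATF4 binds (CARE, TGATGNAA on either strand) was found in 6 of 28 windows of this list (21.4%) and in 2.4% of all windows. The stretches of Nupr1, at chr7:126625548-126625605, and Asns, at chr6:7693210-7693257, both on the minus strand, are shown with the element in capitals.
Nupr1: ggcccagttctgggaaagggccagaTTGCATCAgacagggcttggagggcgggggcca
Asns: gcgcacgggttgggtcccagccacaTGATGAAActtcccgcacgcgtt
Nupr1, a stress-induced nuclear protein, measured 18.2, 24.3 and 22.6 CPM and then 37.2, 36.7 and 36.5 CPM (log2 fold change 0.76 ± 0.09 SE, edgeR adjusted p = 3.7e-05). Asns, asparagine synthetase, measured 58.6, 82.1 and 70.1 CPM and then 122, 97.4 and 117 CPM (log2 fold change 0.67 ± 0.11 SE, edgeR adjusted p = 0.00062) and did not differ detectably from 20-kPa elastic gels (edgeR adjusted p = 0.38).

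Of 46 NRF2 targets and glutathione transferases, which clear oxidants and electrophiles, 25 rose and none fell (median 0.19), and 8 rose and 3 fell between the elastic gels. With the replicate number as a block together with corrections for length and GC content, 13 rose and 1 fell. Gstm1, a glutathione transferase, measured 30.3, 30.1 and 30.3 CPM and then 53.6, 57.03 and 55.6 CPM (log2 fold change 0.87 ± 0.07 SE, edgeR adjusted p = 3.6e-06). Its near-identical relatives may share reads with it. Prdx6, a peroxiredoxin, matched at 242, 249 and 234 CPM and 254, 219 and 252 CPM (edgeR adjusted p for the margin = 0.00057). Heat shock chaperones were alike in size of change, with 30 of 37 within the margin against 43.7% of all genes, although 14 rose and 1, Hspa4l (log2 −0.25), fell by the test of a difference, the latter in no fit with 1 library left out. Of those 14, 9 rose without the third 2-kPa elastic replicate and 9 without the first or the third viscoelastic replicate. Hsph1, which releases nucleotide from HSP70, was not shown to lie within the margin, at 201, 249 and 233 CPM and 348, 374 and 342 CPM (log2 fold change 0.64 ± 0.07 SE, edgeR adjusted p = 3.8e-05), and 20-kPa elastic gels stood 0.59 above 2-kPa elastic gels on the log2 scale.

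Collagens, basement membrane genes and matrix glycoproteins fell more often than they rose on the stiff viscoelastic gel. Of 17 fibrillar and associated collagens, 10 fell, none rose and 6 lay within the margin (median −0.35). Between the elastic gels 8 fell and 1 rose (median −0.31), and between 20-kPa viscoelastic and 20-kPa elastic gels 3 rose and 5 fell (median 0.01). Col6a3, a chain of the microfibrils around cells, measured 1691, 1424 and 1212 CPM on 2-kPa elastic gels and 642, 616 and 622 CPM on 20-kPa viscoelastic gels (log2 fold change −1.20 ± 0.12 SE, edgeR adjusted p = 1.6e-05). It fell from 2- to 20-kPa elastic gels as well (log2 −0.39, edgeR adjusted p = 0.04) and was lower still on 20-kPa viscoelastic gels (edgeR adjusted p = 0.00025 against 20-kPa elastic). Col11a1, a fibril-nucleating collagen, matched at 2546, 3142 and 3052 CPM and 3273, 2612 and 3086 CPM (edgeR adjusted p for the margin = 0.0066), though not when length-corrected (edgeR adjusted p for the margin = 0.062). Of the 17 collagens, 2 lay within the margin when length-corrected, and 4 fell with the block, length and GC terms together. Of 24 enzymes of collagen folding and crosslinking, 7 fell, 4 rose and 12 lay within the margin, with 4 falling without the second 2-kPa elastic replicate and 7 within the margin without the first viscoelastic replicate.

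Basement membrane genes fell in 12 of 24 and rose in 1, Lama3, a laminin chain (log2 1.18), with a median of −0.26 against 0.03 between the elastic gels. The median was −0.18 with 9 falling when length-corrected, and −0.06 with 8 falling with the block, length and GC terms together. Agrn, the proteoglycan agrin, measured 313, 268 and 268 CPM and then 170.2, 155 and 161 CPM (log2 fold change −0.80 ± 0.07 SE, edgeR adjusted p = 1.1e-05), and did not differ detectably from 20-kPa elastic gels (edgeR adjusted p = 0.068). Nid2, nidogen-2, which joins laminin to collagen IV, matched at 286, 302 and 294 CPM and 309, 263 and 283 CPM (edgeR adjusted p for the margin = 0.005), whereas 20-kPa elastic gels had a mean of 180.2 CPM. Agrn was picked as a gene that fell and Nid2 as a gene that matched, so their difference follows from that choice.

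Of 31 matrix glycoproteins and elastic fibre genes, 16 fell, 6 rose and 3 lay within the margin (median −0.24), so few were shown to match. Length-corrected, 7 lay within the margin, and 5 did so without the second viscoelastic replicate. Ltbp4, which stores TGF-beta on elastic fibres, measured 139, 135 and 138 CPM and then 88.5, 81.8 and 82.1 CPM (log2 fold change −0.71 ± 0.06 SE, edgeR adjusted p = 9.7e-06). Mfap5, a microfibril protein, went the other way from 7.21, 9.40 and 7.71 CPM to 13.6, 19.7 and 17.3 CPM (log2 fold change 1.05 ± 0.14 SE, edgeR adjusted p = 0.00013). Neither was shown to differ from 20-kPa elastic gels (edgeR adjusted p = 0.082 and adjusted p = 0.57). Thbs1, thrombospondin-1, matched the soft elastic gel at 4254, 4614 and 4162 CPM and 4661, 4511 and 4601 CPM (edgeR adjusted p for the margin = 0.021; 0.073 without the second 2-kPa elastic replicate), while the 20-kPa elastic mean was 6498 CPM.

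Small leucine-rich proteoglycans, which coat collagen fibrils, were the matrix group that went up, with 7 of 13 rising and 2 falling (median 0.42). Between the elastic gels none rose and 4 fell (median −0.13), and 9 were higher on 20-kPa viscoelastic than on 20-kPa elastic gels. Ogn, osteoglycin, measured 520, 564 and 699 CPM and then 1137, 1442 and 1257 CPM (log2 fold change 1.11 ± 0.15 SE, edgeR adjusted p = 0.00011). Lum, lumican, matched at 884, 904 and 1021 CPM and 853, 1154 and 896 CPM (edgeR adjusted p for the margin = 0.034), but leaving out any library except the first 2-kPa elastic replicate ended that call (edgeR adjusted p for the margin up to 0.129). Of 35 matrix proteases and inhibitors, 12 fell, 4 rose and 9 lay within the margin. The number that fell was 5 without the first 2-kPa elastic replicate, 6 without the second, 6 without the first viscoelastic replicate, 4 without the third and 6 when length-corrected. Adamts5, an aggrecan-cleaving protease, measured 40.9, 55.6 and 47.4 CPM and then 96.4, 158 and 102 CPM (log2 fold change 1.31 ± 0.16 SE, edgeR adjusted p = 5.6e-05). Serpine2, an inhibitor of serine proteases, measured 420.3, 353 and 340.4 CPM and then 215, 223 and 204 CPM (log2 fold change −0.79 ± 0.08 SE, edgeR adjusted p = 1.5e-05). Timp1, an inhibitor of metalloproteinases, matched at 489, 535 and 503 CPM and 511, 508 and 482 CPM (edgeR adjusted p for the margin = 0.0045; 0.11 when length-corrected), and the 20-kPa elastic mean was 738 CPM.

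**Figure D5:**
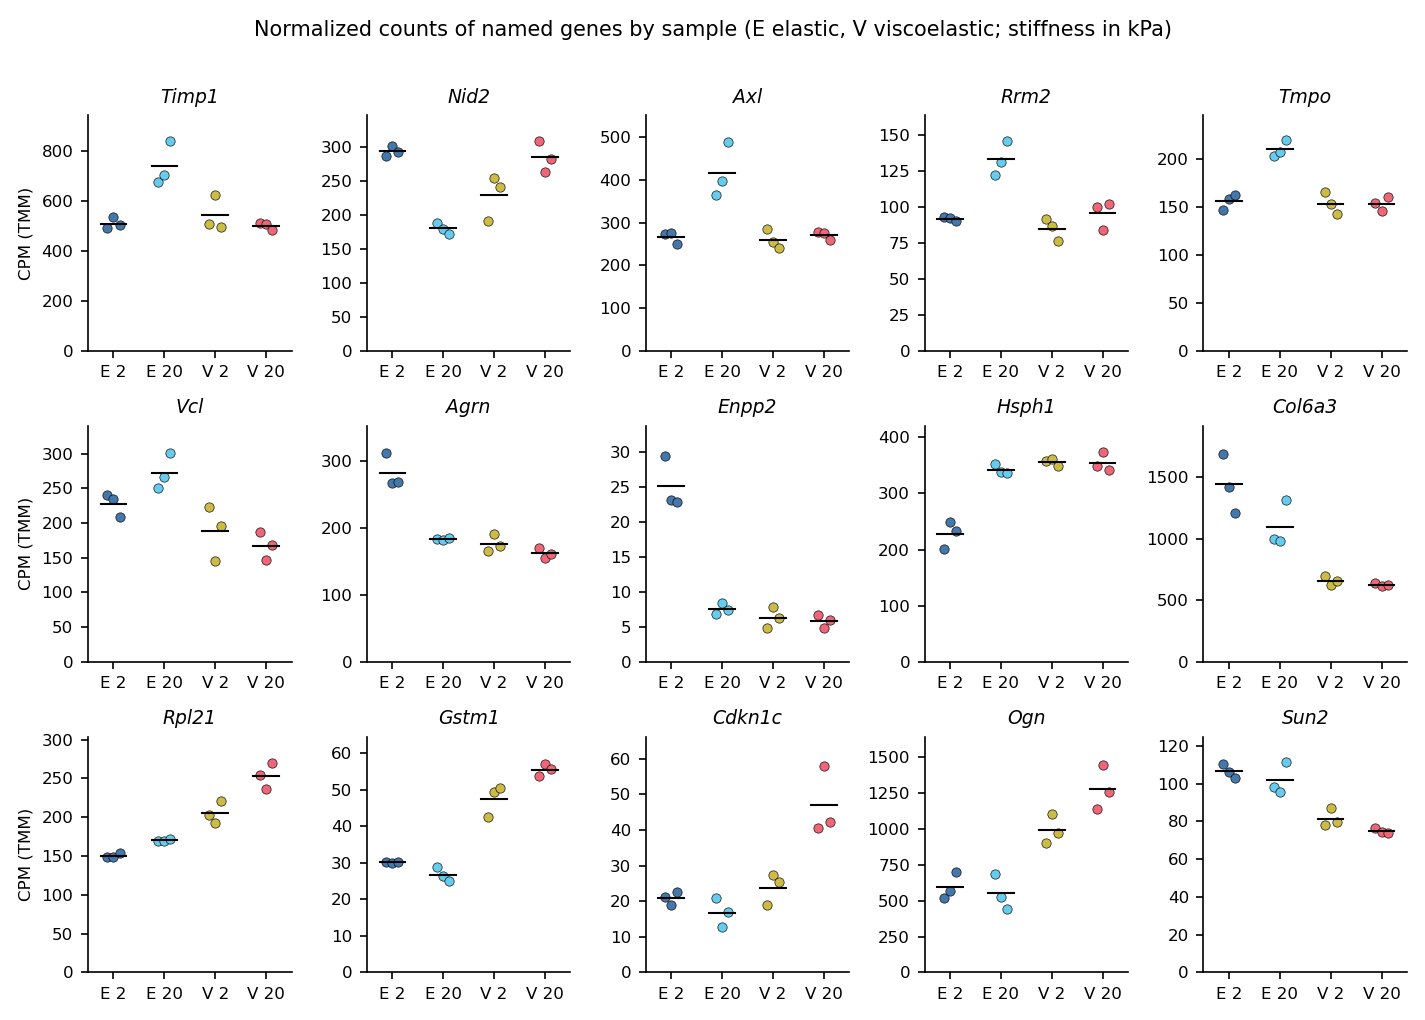
TMM-normalized CPM (y axis, from 0) of 15 named genes in each sample (dots) with the group mean (bars; E elastic, V viscoelastic, number in kPa; n = 3). The upper row holds 5 genes that lay within the 1.3-fold margin between 20-kPa viscoelastic and 2-kPa elastic gels and were called between the elastic gels, and the other rows hold genes called between 20-kPa viscoelastic and 2-kPa elastic gels, such as Gstm1 with means of 30.2 and 55.4 CPM.

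Of the integrin genes 10 of 19 fell, against 15.5% of all tested genes. Of 36 focal adhesion adaptors 25 lay within the margin, against 43.7% of all tested genes. Of the other integrin subunits 1 rose, and 6 of the 19 lay within the margin (median −0.34), whereas 2 rose and 1 fell between the elastic gels (median 0.08). The number that fell was 5 to 8 when 1 library was left out, with 5 without the first 2-kPa elastic or the third viscoelastic replicate and 6 without the second of either group, and it was 6 when length-corrected and 4 with the block, length and GC terms together. The subunit that rose was Itga4, integrin alpha-4 (log2 0.40), a call lost without the first or second 2-kPa elastic or the second or the third viscoelastic replicate. Itga10, a collagen-binding integrin of cartilage, measured 39.2, 33.6 and 33.2 CPM and then 19.9, 20.01 and 18.8 CPM (log2 fold change −0.85 ± 0.13 SE, edgeR adjusted p = 0.00028), with a 20-kPa elastic mean of 17.97 CPM. Of the 36 focal adhesion adaptors and kinases, 10 fell and 4 rose. Length-corrected, 5 fell and 7 rose, with the block, length and GC terms together 2 fell, with total counts alone 6 fell, and 3 fell without the first 2-kPa elastic replicate and 5 without the second viscoelastic replicate.

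Vcl, vinculin, measured 239.8, 234 and 209 CPM on 2-kPa elastic gels and 187, 146 and 169 CPM on 20-kPa viscoelastic gels (log2 fold change −0.44 ± 0.13 SE, edgeR adjusted p = 0.017). The adjusted p rose to 0.054 to 0.073 without the first or second 2-kPa elastic or the second viscoelastic replicate, and to 0.057 when length-corrected. Tln1, talin-1, which links integrins to actin, measured 637, 618 and 553 CPM and then 518, 479.5 and 494 CPM (log2 fold change −0.28 ± 0.07 SE, edgeR adjusted p = 0.0073), with an edgeR adjusted p of 0.12 when length-corrected. On 20-kPa elastic gels Vcl had a mean of 273 CPM and Tln1 of 644 CPM, above 20-kPa viscoelastic gels for both (edgeR adjusted p = 0.00096 and adjusted p = 0.0011). Tns1, a tensin, fell by 0.41 (edgeR adjusted p = 0.00028, and 0.20 with block, length and GC terms together), and Rsu1, part of the complex around integrin-linked kinase, rose by 0.45 (edgeR adjusted p = 0.00011).

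Tmsb10, a thymosin that binds actin monomers, rose from 118, 119 and 114 CPM to 222, 229 and 248 CPM (log2 fold change 0.99 ± 0.08 SE, edgeR adjusted p = 3.4e-06). Msn, moesin, which ties actin to the membrane, matched at 749, 721 and 718 CPM and 694, 627 and 682 CPM (edgeR adjusted p for the margin = 0.014; 0.053 without the first viscoelastic replicate), with a 20-kPa elastic mean of 923 CPM. Of 34 tubulins and microtubule partners, 22 lay within the margin, 8 rose and 3 fell, and 4 rose when length-corrected, without the second or without the third 2-kPa elastic replicate, and 5 without the third viscoelastic replicate. Tuba1a, an alpha-tubulin with close relatives that may share its reads, rose by 0.42 (edgeR adjusted p = 0.00032).

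Contractile genes of myofibroblasts took a middle place. Of 20, 8 rose, 3 fell and 5 lay within the margin (median 0.17), against 12 that rose and none that fell between the elastic gels (median 0.40), and 10 were lower on 20-kPa viscoelastic than on 20-kPa elastic gels. Length-corrected, 9 lay within the margin, with a median of 0.08. Myl6, a light chain of non-muscle myosin, measured 226, 221 and 212 CPM and then 296, 296 and 316 CPM (log2 fold change 0.46 ± 0.05 SE, edgeR adjusted p = 4.3e-05). Myh10, a heavy chain of non-muscle myosin, measured 577, 561 and 544 CPM and then 449, 379 and 448 CPM (log2 fold change −0.40 ± 0.08 SE, edgeR adjusted p = 0.0012). Cald1, caldesmon, lay within the margin (log2 0.17, edgeR adjusted p for the margin = 0.017), but not when length-corrected, without the third 2-kPa elastic or without the first viscoelastic replicate.

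YAP and TEAD target genes did not move together. Of 23, 6 rose, 6 fell and 9 lay within the margin (median 0.05), and the number that rose was 2 without the first 2-kPa elastic or the third viscoelastic replicate and 3 without the second viscoelastic replicate. Ccn1, a secreted matricellular protein, measured 716, 801 and 836 CPM and then 1221, 1730 and 1279 CPM (log2 fold change 0.85 ± 0.15 SE, edgeR adjusted p = 0.00074). Nt5e, the ectoenzyme CD73, measured 136, 132 and 118 CPM and then 61.8, 55.8 and 56.9 CPM (log2 fold change −1.15 ± 0.14 SE, edgeR adjusted p = 4.7e-05). Axl, a receptor tyrosine kinase, matched at 272, 277 and 250.2 CPM and 279, 276 and 259 CPM (edgeR adjusted p for the margin = 0.0049), whereas the 20-kPa elastic mean was 417 CPM. Ccn1, Nt5e and Axl were picked as examples of a rise, a fall and a match, so they add nothing to the counts. Of this list 26.1% rose, 26.1% fell and 39.1% lay within the margin, against 15.9%, 15.5% and 43.7% of all tested genes.

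At the nucleus, 13 of 21 lamina and LINC genes lay within the margin, 8 fell and none rose (median −0.16), and 4 fell when length-corrected. The shares of all tested genes were 43.7% within the margin, 15.5% that fell and 15.9% that rose. Lmna, which encodes lamins A and C, measured 561, 561 and 515 CPM and then 489, 467 and 470.1 CPM (log2 −0.20, edgeR adjusted p = 0.071). It was not called, and its place within the margin (edgeR adjusted p for the margin = 0.045) was lost when any 1 library was left out (edgeR adjusted p for the margin up to 0.147), while the values of the groups did not overlap. Lmnb1, lamin B1, matched at 47.6, 47.3 and 46.4 CPM and 46.3, 38.4 and 48.1 CPM (edgeR adjusted p for the margin = 0.0093) and Tmpo, a lamina-associated protein, at 147, 158 and 163 CPM and 154, 145 and 161 CPM (edgeR adjusted p for the margin = 0.00075). On 20-kPa elastic gels the means of Lmnb1 and Tmpo were 62.9 and 209.8 CPM. Sun2, a LINC protein of the inner nuclear membrane, measured 111, 106 and 103 CPM and then 76.6, 74.2 and 73.9 CPM (log2 fold change −0.51 ± 0.07 SE, edgeR adjusted p = 8.5e-05).

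Of 29 nuclear pore genes, 17 lay within the margin, 12 fell and none rose (median −0.12), against 43.7%, 15.5% and 15.9% of all tested genes. Length-corrected, 5 fell, and 7 fell without the second 2-kPa elastic or the second viscoelastic replicate. Pom121, which anchors the pore in the membrane, fell by 0.38 (edgeR adjusted p = 0.00076). Of 33 histone acetyltransferases and deacetylases, 23 lay within the margin, 3 rose and 5 fell. Hdac2, a class I deacetylase, rose by 0.28 (edgeR adjusted p = 0.0016). Histone methyltransferases and demethylases fell in 21 of 50 and rose in 1, Prmt1 (log2 0.19), an arginine methyltransferase, with 32 within the margin. The call of Prmt1 was lost without the second 2-kPa elastic or the third viscoelastic replicate. Only 4 fell when length-corrected, 12 with total counts alone, 13 without the second 2-kPa elastic and 12 without the second viscoelastic replicate. Kdm7a, a histone demethylase, fell by 0.50 (edgeR adjusted p = 0.00012). Parp1, a DNA repair enzyme, matched at 85.99, 78.3 and 76.3 CPM and 79.7, 71.2 and 77.9 CPM (edgeR adjusted p for the margin = 0.00087).

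In metabolism, glycolysis genes matched in 17 of 21, and 6 rose and 2 fell. The shares of all tested genes, for this and the next lists, were 43.7% within the margin, 15.9% that rose and 15.5% that fell. Without the first 2-kPa elastic or the first viscoelastic replicate 2 rose, without the third of either group 3 rose, and 2 rose when length-corrected. Tpi1, triosephosphate isomerase, was both called and within the margin, at 263, 278 and 254 CPM and 318, 304 and 305 CPM (log2 fold change 0.22 ± 0.05 SE, edgeR adjusted p = 0.0068). The call was lost when length-corrected (0.10) and the place within the margin without the second 2-kPa elastic or the third viscoelastic replicate. Of 17 fatty acid synthesis genes, 9 fell, 2 rose and 10 lay within the margin, and 5 fell when length-corrected and 4 without the second 2-kPa elastic replicate. Srebf1, a master regulator of lipid synthesis, fell by 0.38 (edgeR adjusted p = 0.00034). Cholesterol genes lay within the margin in 18 of 28, with 5 that rose and 3 that fell. The share that rose, 17.9%, was near that of all tested genes. Of 41 lysosomal genes, 24 lay within the margin, 11 fell and 1 rose, Atp6v1h (log2 0.15), a subunit of the proton pump, a call lost when any 1 library was left out. Without the first 2-kPa elastic or the third viscoelastic replicate 7 lysosomal genes fell. Between the elastic gels 14 fell. Npc2, a cholesterol carrier, matched at 292, 278 and 285 CPM and 273, 306 and 267 CPM (edgeR adjusted p for the margin = 0.00049), and Man2b1, a lysosomal mannosidase, fell by 0.47 (edgeR adjusted p = 8.9e-05). The share of hypoxia-inducible genes that rose, 15.8%, was near that of all tested genes as well. Hypoxia-inducible genes lay within the margin in 11 of 19, with 3 that rose and 1 that fell, Car12, a carbonic anhydrase (log2 −1.06). Vegfa, the endothelial growth factor, was among those within it (log2 0.10, edgeR adjusted p for the margin = 0.0064).

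Signalling genes moved in both directions, as did all tested genes, of which 15.9% rose, 15.5% fell and 43.7% lay within the margin. Of 49 TGF-beta and BMP genes, 12 fell, 6 rose and 24 lay within the margin, and 19 fell when the 6 samples were fitted alone and 7 without the first or the second 2-kPa elastic replicate. Tgfb1, the ligand itself, measured 72.4, 59.7 and 52.8 CPM and then 40.1, 36.3 and 37.1 CPM (log2 fold change −0.70 ± 0.10 SE, edgeR adjusted p = 0.00013). Id2, a BMP target, rose by 0.26 (edgeR adjusted p = 0.0024; 0.060 when length-corrected). Of 42 WNT genes, 11 rose, 12 fell and 10 lay within the margin, and 4 to 9 fell when 1 library was left out (7 and 5 without the first and second 2-kPa elastic, 4 and 6 without the first and the third viscoelastic replicate). Nkd2, a feedback inhibitor of WNT signalling, measured 8.55, 9.26 and 8.57 CPM and then 12.4, 12.2 and 12.2 CPM (log2 fold change 0.48 ± 0.07 SE, edgeR adjusted p = 0.00024). Of 37 IGF, FGF and PDGF genes, 10 rose, 7 fell and 7 lay within the margin, and 6 rose without the first 2-kPa elastic or the second viscoelastic replicate. Fgf7, a growth factor for epithelial cells, measured 214, 233 and 217 CPM and then 311, 368 and 327 CPM (log2 fold change 0.60 ± 0.07 SE, edgeR adjusted p = 5e-05).

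Of 23 tested chemokines and cytokines, 6 rose, 4 fell and 2 lay within the margin, against 15.9%, 15.5% and 43.7% of all tested genes. The other 11 passed neither test. Ccl7, a monocyte chemokine, measured 11.9, 13 and 11.3 CPM and then 18.7, 26.02 and 19.4 CPM (log2 fold change 0.82 ± 0.13 SE, edgeR adjusted p = 0.0004). Cx3cl1, a membrane-bound chemokine, measured 125, 95.7 and 92.3 CPM and then 61.5, 59.4 and 53.5 CPM (log2 fold change −0.85 ± 0.11 SE, edgeR adjusted p = 0.0001). Of 16 complement genes, 6 rose, none fell and 2 lay within the margin (median 0.24). Serping1, the C1 inhibitor, measured 38.95, 56.4 and 56.6 CPM and then 123, 159.8 and 126 CPM (log2 fold change 1.43 ± 0.18 SE, edgeR adjusted p = 7.9e-05). C4b matched at 596, 642 and 615 CPM and 589.6, 573 and 539 CPM (edgeR adjusted p for the margin = 0.0083), and its 20-kPa elastic mean was 441 CPM. Of 50 interferon-stimulated genes, 4 rose, 1 fell and 12 lay within the margin, and 33 passed neither test. Within the margin lay 6 without the third 2-kPa elastic replicate and 7 without the second or the third viscoelastic replicate.

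Immediate early genes, which respond to serum and stretch within minutes, rose in 9 of 28 and fell in 2, with 14 rising in the fit without the expression filter. Klf6, a zinc finger factor, rose by 0.41 (edgeR adjusted p = 0.00032). Of 58 calcium handling genes, 21 fell, 11 rose and 30 lay within the margin, and 13 fell when length-corrected. The gels differ in calcium by their crosslinks, together with stress relaxation, and the part of calcium in these values was not tested. S100a11, a calcium-binding protein, measured 131, 144 and 140 CPM and then 229, 226 and 238 CPM (log2 fold change 0.74 ± 0.06 SE, edgeR adjusted p = 4.7e-06), and Itpr2, a calcium release channel, 76.7, 101 and 81.5 CPM and then 54.1, 51.4 and 56.3 CPM (log2 fold change −0.68 ± 0.08 SE, edgeR adjusted p = 6.1e-05). From 2- to 20-kPa elastic gels S100a11 rose by 0.36 (edgeR adjusted p = 0.0016) and Itpr2 fell by 0.32 (edgeR adjusted p = 0.02). Of 45 mesenchymal transcription factors, 25 lay within the margin, 7 rose and 4 fell, and 4 rose without the second 2-kPa elastic or the second viscoelastic replicate. The share of this list that rose, 15.6%, was near the 15.9% of all tested genes. Mkx, a tendon regulator, measured 9.83, 14.1 and 13.5 CPM and then 23.6, 30.5 and 25.3 CPM (log2 fold change 1.09 ± 0.14 SE, edgeR adjusted p = 6.6e-05).

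Over all genes with at least 5 CPM on average, with no overlap between the groups, the 6 genes that rose most were Fam107a, Ackr4, Akr1c14, Stc2, Chodl and Egfl6. Fam107a, an actin-binding protein of stressed cells, measured 1.52, 3.48 and 2.72 CPM and then 11.6, 18.3 and 12.01 CPM (log2 fold change 2.44 ± 0.26 SE, edgeR adjusted p = 2.8e-05). Ackr4, a scavenger receptor for chemokines, measured 4.97, 7.17 and 5.68 CPM and then 20.4, 35.95 and 22.6 CPM (log2 fold change 2.15 ± 0.25 SE, edgeR adjusted p = 4.3e-05). Akr1c14, an aldo-keto reductase, was higher by 1.93 on the log2 scale, with edgeR adjusted p = 1.5e-05. Chodl, a C-type lectin-like protein, and Egfl6, a secreted matrix protein, were higher by 1.82 and 1.74. All of these also exceeded 20-kPa elastic gels, by 1.27 (Egfl6), 1.25 (Fam107a), 1.48 (Ackr4), 1.19 (Stc2), 1.82 (Chodl) and 1.88 (Akr1c14) on the log2 scale, with edgeR adjusted p of at most 0.0013. The 20-kPa viscoelastic samples that picked these genes enter this comparison too, so its values are a description.

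The largest falls were those of Enpp2, Cyp1a1, Mamdc2, Clca3a2, Sh2d5 and Slc40a1. Enpp2, autotaxin, which makes lysophosphatidic acid, measured 29.4, 23.1 and 22.8 CPM and then 6.62, 4.80 and 5.89 CPM (log2 fold change −2.12 ± 0.16 SE, edgeR adjusted p = 3.3e-06). Its mean on 20-kPa elastic gels was 7.51 CPM, from which 20-kPa viscoelastic gels did not differ detectably (edgeR adjusted p = 0.089). Cyp1a1, a target of the aryl hydrocarbon receptor, fell by 1.78 (edgeR adjusted p = 0.0042), Mamdc2, a secreted matrix protein, by 1.67 (edgeR adjusted p = 0.00011), Clca3a2, of a chloride channel accessory family, by 1.65 (edgeR adjusted p = 1.1e-05), and Slc40a1, the iron exporter ferroportin, by 1.38 (edgeR adjusted p = 0.00023). Sh2d5, an adaptor protein, fell by 1.45 (edgeR adjusted p = 2.9e-05), to a level below that on 20-kPa elastic gels as well (edgeR adjusted p = 0.0001). Of these 6, only Sh2d5 and Mamdc2 (adjusted p = 0.043) differed from 20-kPa elastic gels by the same test. That comparison reuses the 20-kPa viscoelastic samples that picked the genes.

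Over the lists reported with 20 or more tested genes, those with the largest shares of genes within the margin were heat shock chaperones (30 of 37), glycolysis (17 of 21), histone acetyltransferases and deacetylases (23 of 33), G1 regulators (16 of 23) and focal adhesion adaptors (25 of 36), against 43.7% of all genes. Some of these genes were also called. Within the margin and not called were 21, 12, 22, 15 and 20 of them in the same order, against 5554 of all 14542 genes. Passing neither test were 1, 1, 3, 3 and 2, against 4419 of all genes, so these lists were also measured more precisely than most. The smallest shares within the margin, called or not, were those of cytosolic ribosomal protein genes (1 of 79), chemokines (2 of 23) and matrix glycoproteins and elastic fibre genes (3 of 31). Of these lists 2, 11 and 6 genes passed neither test, so for many chemokines no difference was shown either. Of the 991 genes that rose between 2- and 20-kPa elastic gels, 427 lay within the margin on 20-kPa viscoelastic gels, 324 rose and 84 fell, each relative to the same 2-kPa elastic samples. Of the 1038 that fell, 334 lay within the margin, 548 fell and 37 rose. The comparisons share the 2-kPa elastic samples, so these counts are a description and not a test.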

How the data were processed

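RNA was sequenced from 12 samples of mouse ear fibroblasts in 4 groups of 3, and groups and replicate numbers came from the sample labels. The authors trimmed reads with Trimmomatic, aligned them to mm10 with STAR and assigned them to GENCODE genes with featureCounts, and they deposited the raw counts. The annotation release, the strand setting and the treatment of reads mapping to several places are not given in the sources used here. From the deposited counts, genes were filtered by filterByExpr, normalized by TMM and fitted over all 12 samples with 4 group terms in edgeR 4.0.16 (limma 3.58.1, R 4.3.3), with glmQLFTest and Benjamini-Hochberg adjustment over 14542 genes at 0.05. Likeness was tested with 2 one-sided quasi-likelihood tests against a 1.3-fold margin, adjusted over the same genes. SE is that of the log2 fold change.

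The groups compared and the gene lists were chosen with earlier results of these data known, and 1 list is not reported here. Named genes were, for each list, the called members with the lowest adjusted p that rose and that fell without overlap between groups, and the most abundant member within the margin that was called between the elastic gels. To these were added the 6 largest rises and falls over genes of at least 5 CPM, and Lmna, Lmnb1, Vcl, Tln1 and Parp1. Named in addition, after their values were seen, were marker genes, the genes with printed promoters (Top2a, Ncapd2, Uhrf1, Rps6, Rpl28, Asns, Nupr1) and single exceptions in a list (Psme4, Slc38a2, Lama3, Itga4, Atp6v1h, Prmt1, Hspa4l, Car12). Promoter windows came from RefSeq on GRCm38.p6 and matched 10882 tested genes. Exon lengths came from GENCODE M21 and were known for 14328 tested genes.

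Alternatives were scaling by total counts or by the size factors of DESeq2, no expression filter, the 6 samples alone, an adjusted p of 0.01, a replicate block, gene length and GC content corrections, each library left out, margins of 1.2 and 1.5, and DESeq2 1.42.0. Between 36626221 and 42410260 counts per library stand behind the values, and this depth bears on counting error only.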

Additional observations from a re-analysis of the deposited data

Results flagged for a closer look

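The effect of stiffness was tested for a difference between gel types (log2 fold change from 2 to 20 kPa on viscoelastic gels minus the same on elastic gels, an interaction term in edgeR's quasi-likelihood fit with adjusted p under 0.05). On viscoelastic gels the dose of calcium changes with stiffness, so the term includes it. Of 14542 tested genes, 1100 (7.56%) passed, and of 100 of the genes named in the text 31 passed, 19 above 0 and 12 below. Most of these 100 were picked by related values of the same samples, so their share is a description.

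A difference above 0, meaning less of a fall or more of a rise with stiffness on viscoelastic gels, was found for Cyp1a1 (2.37), Enpp2 (1.62), Clca3a2 (1.43), Cdkn1c (1.29), Mamdc2 (1.27), Lum (1.08), Itga10 (1.03) and Nid2 (1.02). Smaller differences above 0 were those of Cx3cl1 (0.68), Ltbp4 (0.60), Tgfb1 (0.59), Agrn (0.50), C4b (0.50), Prdx6 (0.46), Gstm1 (0.40), Tns1 (0.38), Id2 (0.37), Atp5e (0.35) and Tuba1a (0.35).

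A difference below 0 was found for Myh11 (−2.06), Mfap5 (−1.21), Adamts5 (−0.99), Nkd2 (−0.94), Thbs1 (−0.71), Ccl7 (−0.68), Timp1 (−0.65), Hsph1 (−0.59), Axl (−0.58), Cald1 (−0.52), Vegfa (−0.44) and Tmpo (−0.43).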

How the results depend on the processing

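Of the 4569 genes called between 20-kPa viscoelastic and 2-kPa elastic gels, none had the opposite sign under other scaling, without the filter, with the 6 samples alone, with a replicate block, with GC correction, with any library left out or in DESeq2, while 7 did with length correction and 71 with block, length and GC terms together. The number called was 4533 with DESeq2's size factors, 4635 in DESeq2, 4465 without the filter, 5226 with the 6 samples alone, 2576 at an adjusted p of 0.01 and 3023 with block, length and GC terms together. With total counts alone it was 4559, of which 63.1% rose against 50.6% in the fit reported. Leaving out 1 library gave 3199 to 3926 called genes and 5125 to 5748 within the margin. The number within the margin was 4137 at an adjusted p of 0.01, 1825 for a 1.2-fold and 10402 for a 1.5-fold margin. With length correction 3463 were called, 2890 of them called in the same direction before. Same-numbered samples of these groups had correlations of 0.09, −0.10 and 0.03 of their deviations, so the numbers were not taken to pair them, and the replicate block gave 4187 called genes and 6144 within the margin. Only these 2 groups were compared in this way. In some lists, picked after their values were seen, the second replicates of both viscoelastic groups stood out together. Mean relative log2 levels of interferon-stimulated genes were 0.36 (2 kPa) and 0.60 (20 kPa), and below 0 in the other viscoelastic samples. For mitochondrially encoded genes they were 0.36 and 0.49, and at most 0.18 in the others. Why they did so was not tested. The excess distance of 0.131 was 0.379 over the 500 genes of highest variance and 0.118 to 0.146 with 1 library left out. Kat6b and Kdm5b, which had fallen, had the opposite sign with length correction (0.0064 and 0.028) and with block, length and GC terms together (0.016 and 0.035), without being shown to rise. The cause was not tested. Depth limits genes of low count, and 30.4% of tested genes passed neither test.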
